A study of Mus musculus with 16 samples.

Results

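Alternate-day fasting was compared with free feeding in all 16 B6MyC-CaP tumours of the series at once, as the mean of 2 fasting effects: one measured without drug and one under enzalutamide. B6MyC-CaP is a prostate cancer cell line made from Hi-MYC transgenic mice that had been bred onto C57BL/6. The Hi-MYC transgene drives MYC from a probasin promoter, which is active in prostate epithelium and responds to androgen. Cells of this line were grown under the skin of male C57BL/6 mice aged 6 weeks when the cells were put in, so every tumour carries the transgene of the same line. The Vehicle group (4 tumours) had normal chow at all times and no drug. The ENZ group (4 tumours) had normal chow at all times and 20 mg/kg of the antiandrogen enzalutamide by mouth each day. The ADF group (4 tumours) alternated 24 h without food and 24 h with free access to food, and the ADF+ENZ group (4 tumours) had the same feeding cycle together with the daily 20 mg/kg of enzalutamide. Whether the fasted mice were killed after a day without food or after a day of feeding, and how long treatment lasted, is not stated in the sources used here.

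During a fast insulin and IGF-1 fall, fat stores release fatty acids and the liver makes ketone bodies. Cells then burn more fatty acid through the carnitine shuttle, hold back glucose oxidation, and relieve the FOXO transcription factors from AKT. Low nutrient supply also lowers mTOR signalling, which controls protein synthesis and autophagy, and lowers insulin-driven sterol and fatty acid synthesis in liver. In a tumour the same genes also answer to oxygen, androgen and MYC.

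The average fasting effect was the mean of ADF and ADF+ENZ minus the mean of Vehicle and ENZ, 8 tumours against 8, from a single edgeR fit of the gene counts. It is the mean of ADF minus Vehicle and ADF+ENZ minus ENZ, which share no library. Effects are log2 changes, and a gene was said to have risen or fallen when its adjusted p was under 0.05. Levels are in CPM, gene counts scaled by TMM-normalized library size to a common total, given as mean ± SD over 4 tumours. A gene was counted as moved alike when it passed for the average, both fasting effects had the same sign and an unadjusted p under 0.05, and the smaller was at least 0.5 of the larger. Just inside that last limit was Ttc28, with effects of 0.67 and 0.34, and just outside it was Tfdp2, with 0.23 and 0.46. The labels give each tumour a number of its own but do not say that these are separate mice. A p-value here therefore sets a difference against the spread among these samples only. In bulk tumour RNA, fewer cells of a type and less RNA per cell cannot be told apart.

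Libraries held 10072489 to 25505655 gene counts. Of the prostate markers, the luminal keratin Krt8 stood at 457 to 594 CPM by group and Foxa1 at 42.5 to 55.2 CPM, while the probasin gene Pbsn had 0 counts over all libraries. Read composition moved with diet. Reads that overlap several genes (ambiguous) made up 4.002% ± 0.316 of reads in Vehicle against 2.85% ± 0.134 in ADF, and 4.47% ± 0.535 in ENZ against 3.63% ± 0.158 in ADF+ENZ (SD, n = 4). In each drug state all fed tumours lay above all fasted tumours (two-sided exact permutation within drug state, p = 0.000408, the smallest that 4900 assignments allow, adjusted p = 0.00327 over 8 measures). Reads aligned to several places were also fewer after fasting (adjusted p = 0.00490, exact permutation), most of all in ADF, where they made up 4.70% ± 0.414 against 7.44% ± 0.294 in Vehicle (SD, n = 4). Reads that did not align were more after fasting (adjusted p = 0.0131, exact permutation), at 8.24% ± 0.779 in Vehicle against 10.7% ± 1.15 in ADF and 9.93% ± 1.81 in ENZ against 12.6% ± 2.74 in ADF+ENZ (SD, n = 4), though among enzalutamide-treated tumours alone the exact p was 0.2. Reads in no gene were 32.9% ± 2.73 in ADF and between 24.0% and 25.9% in the means of the other groups (adjusted p = 0.279 for the average, exact permutation). The part of these measures in the gene results was tested only by adding 2 of them to the fit, with the outcome given beside the first counts.

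Fasting changed 958 genes on average over both drug states, of 18946 tested (5.06%). Of these, 447 rose (2.36%) and 511 fell (2.7%), and 4106 genes had an unadjusted p under 0.05. Changes were modest: the median size among the 958 was 0.38 on the log2 scale, and 77 exceeded 2-fold. Genes that moved alike with and without enzalutamide numbered 393 (2.07% of genes tested, 41% of those changed), of which 206 rose (1.09%) and 187 fell (0.987%). Another 330 of the 958 (34.4%) had the same sign in both states but an unadjusted p under 0.05 only without drug, 139 (14.5%) only with drug, 45 had unequal sizes, and 51 (5.32%) had opposite signs. The difference between the 2 fasting effects passed its own test for 92 of the 958 genes and for 587 of all genes tested (3.1%). It passed for 0 of the 393 moved alike, a count that says little, since the rule chose effects of like sign and size. Among the 393, 138 had CPM ranges of fed and fasted tumours that did not overlap in either drug state. The rule also chose them for a low p in each state, which favours separate ranges. Over all genes tested, 184 (0.971%) were separated in the same direction in both states, 16.5% were separated without drug and 8.67% with drug.

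The number of changed genes depended on a few libraries. Leaving out Vehicle replicate 3 gave 624, ENZ replicate 3 gave 567, ENZ replicate 4 gave 630 and ADF replicate 4 gave 633. The number moved alike fell to 260 without ENZ replicate 3, of which 240 were among the 393. With the share of ambiguous reads as a covariate, chosen after seeing the data, 0 genes passed in edgeR, the only tool fitted with it (1428 at an unadjusted p under 0.05), and 0 were moved alike. In that fit the standard errors of the 958 genes were a median of 2.05 times as large, their changes a median of 0.967 times as large, and 99.2% of them kept their sign. With the share of reads in no gene as the covariate, 542 genes passed and 228 moved alike. Of the genes named by rule, all 64 that passed lost the call with ambiguous reads as the covariate. With reads in no gene as the covariate 18 of them lost it (adjusted p from 0.0507 to 0.222, edgeR): Akt2, Angptl4, Atp6v1a, Bhlhe40, Calr, Cdc45, Hist1h2bc, Idi1, Il1a, Il1b, Il1rn, Mt1, Npr3, Pdk4, Rrm2, Sc5d, Slc2a1 and Ulk1. In a fit without an interaction term 10 lost it (adjusted p from 0.0513 to 0.222, edgeR): Akt2, Bhlhe40, Fasn, Il1b, Mt1, Pdk4, Pgf, Slc2a1, Vcan and Vegfa. With no filter on low counts it was lost for Idi1, Pdk4, Polr1a, Rrm2 and Vcan.

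Each fasting effect was also set against the other, since they come from separate tumours. Without drug 1707 genes passed (9.01%), and with drug 206 passed (1.09%). Of the 1707, 885 (51.8%) had the same sign under enzalutamide, where 49.8% of all genes tested did, and 203 (11.9%) had the same sign with an unadjusted p under 0.05, where 8.63% of all genes did. Of the 206 genes that passed under enzalutamide, 126 (61.2%) had the same sign without drug, and 62 (30.1%) also had an unadjusted p under 0.05 there. Among the 52 that fell under enzalutamide (0.274% of genes tested), 39 (75%) were also lower without it. Across all genes the correlation of the 2 effects was 0.03 (Pearson) and 0.01 (Spearman), and 0.10 (Pearson) over 9824 genes at 10 CPM or more. Genes are not independent replicates, and the effects share only their normalization and fit. The count with drug ranged from 20 without ADF+ENZ replicate 3 to 358 without ADF+ENZ replicate 2, and was under 206 by more than 1.5 times without ENZ replicate 1 (111), 2 (120), 3 (36) or 4 (41), ADF replicate 3 (120) or ADF+ENZ replicate 1 (45). The count without drug was 610 without ADF replicate 4, 1055 without ADF replicate 3, 777 without Vehicle replicate 2 and 713 without Vehicle replicate 3.

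**Figure D1:**
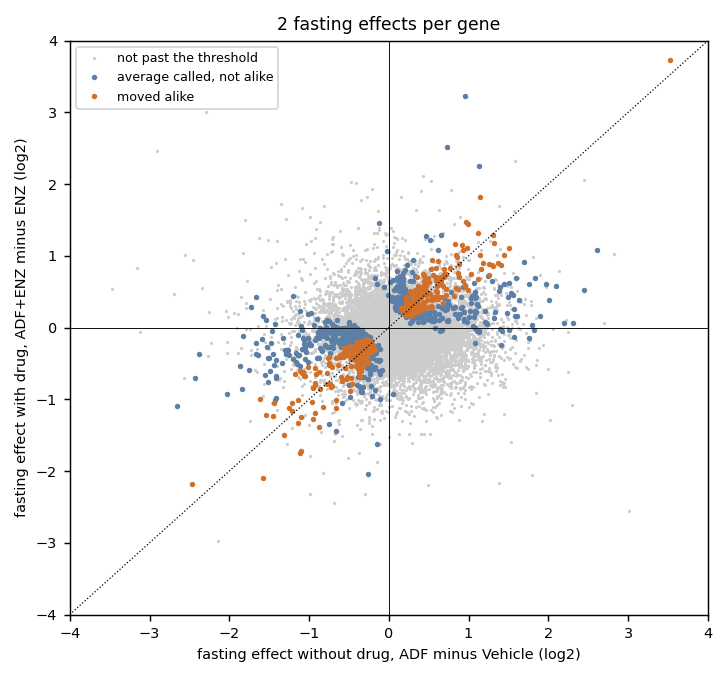
Fasting effect of each tested gene without drug (x axis, ADF minus Vehicle, log2) and with drug (y axis, ADF+ENZ minus ENZ, log2), with the 393 genes moved alike in orange, other genes changed on average in blue, genes past no threshold for the average in grey, and equal effects on the dotted line. Over all points together the Pearson correlation is 0.03, many blue points lie near one axis, and 1 gene falls outside the limits of 4.

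Some of the clearest genes moved alike belong to fatty acid use, which itself was not measured. Cpt1a (ENSMUSG00000024900, chromosome 19), the enzyme that admits long-chain fatty acids to mitochondria, stood at 221, 180.3, 247 and 177 CPM in Vehicle and at 306, 267, 297 and 288 CPM in ADF. Under drug it stood at 181, 242, 178 and 205 CPM in ENZ and at 316, 305, 380 and 295 CPM in ADF+ENZ. Every fasted tumour lay above every fed tumour of its drug state. The average rise was 0.59 (SE 0.0833, adjusted p = 0.000914), from 0.49 without and 0.69 with drug, and the interval of their difference ran from -0.15 to 0.54 (95%).

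Angptl4 (ENSMUSG00000002289, chromosome 17), a secreted inhibitor of lipoprotein lipase that fasting and PPAR receptors induce, stood at 86.5, 51.5, 125 and 55.9 CPM in Vehicle and 202, 151, 134 and 138 CPM in ADF. It stood at 76.4, 108, 51.5 and 30.3 CPM in ENZ and 211, 169, 232 and 121 CPM in ADF+ENZ. The fed tumours varied up to several fold among themselves, yet none reached a fasted tumour of its drug state. The average rise was 1.22 (SE 0.267, adjusted p = 0.0227), the joint largest rise among separated genes at 1 CPM or more. Without ENZ replicate 3 the rise was 1.17 with an adjusted p of 0.0521.

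A gene of ketone use moved the other way. Oxct1 (ENSMUSG00000022186, chromosome 15), which activates acetoacetate so that cells can burn ketone bodies, stood at 181, 222, 194 and 193 CPM in Vehicle and 121, 103, 125 and 128 CPM in ADF. It stood at 167, 191, 212 and 223 CPM in ENZ and 124, 136, 121 and 168 CPM in ADF+ENZ. The groups were apart without drug and overlapped with drug, where 1 fasted tumour (168 CPM) was above the lowest ENZ tumour (167 CPM). The average fall was -0.63 (SE 0.0791, adjusted p = 0.000541). Of 21 tested members of the fatty acid oxidation and ketone list, 2 rose (2.36% of all genes) and 2 fell (2.7%). Cpt1a and Oxct1 were those moved alike, and the list's median was 0.02 against 0.00 for all genes. Most oxidation enzymes did not pass, Cpt2 among them (0.02) and Acadm (-0.03).

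Pdk4, the kinase that shuts pyruvate out of oxidation during fasting, was scarce, at 0.353 ± 0.262 CPM in Vehicle and 0.677 ± 0.465 CPM in ADF, and at 0.104 ± 0.0845 CPM in ENZ and 0.964 ± 0.593 CPM in ADF+ENZ (SD, n = 4). It rose by 2.096 on average (SE 0.569, adjusted p = 0.0415), with ranges apart only under drug. Its adjusted p was between 0.0557 and 0.0867 when Vehicle replicate 3, ENZ replicate 1, 3 or 4, ADF replicate 2 or 3, or ADF+ENZ replicate 1, 2 or 3 was left out.

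**Figure D2:**
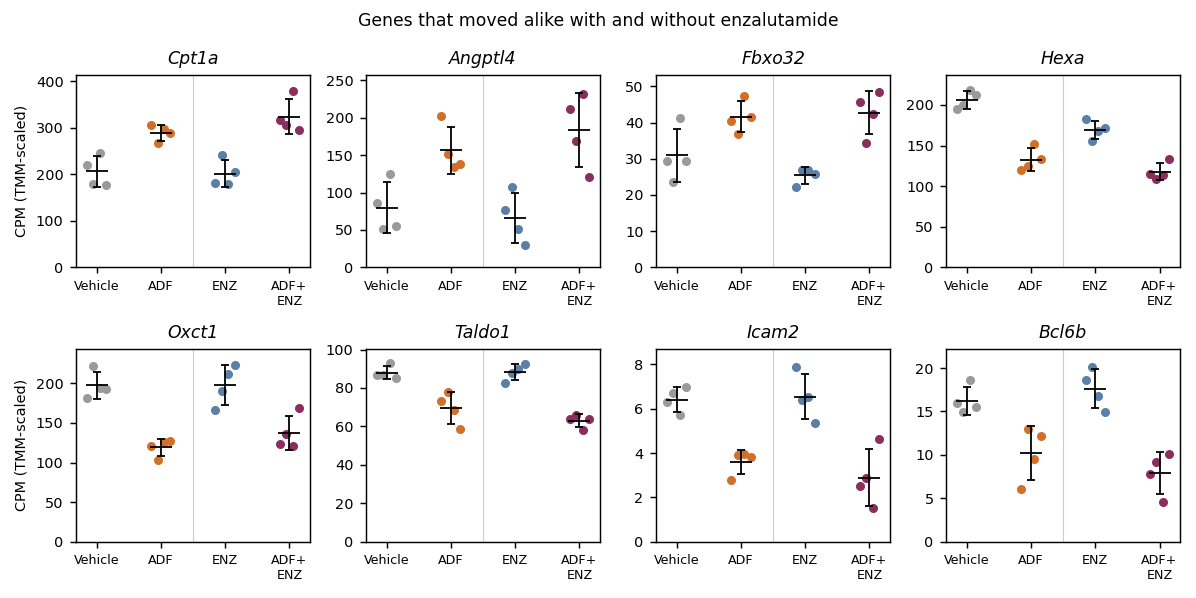
CPM of 8 genes moved alike in each tumour (points), with the mean and SD of each group of 4 (black bars), fed and fasted groups side by side without drug (left of the grey line) and with drug (right). Cpt1a, Angptl4 and Fbxo32 are higher in both fasted groups, and Hexa, Oxct1, Taldo1, Icam2 and Bcl6b are lower.

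The FOXO and insulin lists moved little. Fbxo32, the muscle atrophy ubiquitin ligase atrogin-1 and a FOXO target, stood at 29.4, 23.6, 41.3 and 29.5 CPM in Vehicle and 40.5, 37.0, 47.3 and 41.6 CPM in ADF. It stood at 22.1, 26.96, 26.8 and 25.9 CPM in ENZ and 45.8, 34.5, 42.5 and 48.4 CPM in ADF+ENZ. The ranges were apart under drug, and without drug 1 Vehicle tumour lay within the fasted range. The average rise was 0.59 (SE 0.0997, adjusted p = 0.00301). Of 24 tested FOXO and fasting-induced genes only Fbxo32 and Pdk4 passed in edgeR, both upward (2.36% of all genes rose). In limma-voom only 1 passed (Pdk4 adjusted p = 0.0898) and in DESeq2 1, with no adjusted p for Pdk4. The list's median was 0.05. Insulin receptor substrate 2 (Irs2), a FOXO target in liver, did not pass (0.39, adjusted p = 0.184), nor did the glucose-responsive arrestin Txnip (0.38, adjusted p = 0.26) or the IGF-1 receptor Igf1r (0.25, adjusted p = 0.0714). Igf1r passed without ENZ replicate 1 (0.29, adjusted p = 0.0288) and in DESeq2 (adjusted p = 0.0469). Of 19 tested insulin and IGF signalling genes 2 fell (2.7% of all genes) and none rose. The kinase Akt2 was 1 of these, at 128 ± 5.52 CPM in Vehicle and 99.1 ± 3.75 CPM in ADF but 110 ± 4.23 and 107 ± 5.67 CPM in ENZ and ADF+ENZ (average -0.20, adjusted p = 0.0176).

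Glycolysis genes fell on average, but nearly all of that fall came from the tumours without drug. Of 21 tested members, 16 fell and none rose, where 2.7% of all genes fell, and all 21 averages were below 0. The list's median was -0.43 for the average, -0.92 without drug and -0.06 with drug. The test of the difference between the 2 effects passed for 12 of the 21, where it did for 3.1% of all genes. The 16 became 7 with reads in no gene as covariate and 6 without an interaction term. Only Pfkl was moved alike.

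Pfkl (ENSMUSG00000020277, chromosome 10), the liver-type subunit of phosphofructokinase, stood at 108, 96.2, 159 and 77.3 CPM in Vehicle and 41.8, 52.0, 63.0 and 51.2 CPM in ADF. It stood at 75.2, 76.6, 74.6 and 63.2 CPM in ENZ and 48.2, 57.9, 42.4 and 39.0 CPM in ADF+ENZ. Fasted tumours were below fed tumours in both drug states, and the average fall was -0.85 (SE 0.133, adjusted p = 0.0029). Ldha (ENSMUSG00000063229, chromosome 7), which turns pyruvate into lactate, was different. It stood at 682, 668, 791 and 513 CPM in Vehicle against 341, 373, 350 and 272 CPM in ADF, with no overlap. With enzalutamide it was 528, 546, 552 and 478 CPM in ENZ against 440, 440, 518 and 401 CPM in ADF+ENZ, where the ranges overlapped. Its 2 effects were -0.99 and -0.23, and they differed by 0.77 (95% interval 0.41 to 1.13, adjusted p = 0.0256).

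Hypoxia response genes outside glycolysis had the same shape. Of 30 tested, 14 fell on average (2.7% of all genes fell) and 1, Angptl4, rose. The 14 became 8 with reads in no gene as covariate and 5 without an interaction term. The list's median was -0.82 without drug and 0.01 with drug. P4ha2 (ENSMUSG00000018906, chromosome 11), a collagen prolyl hydroxylase, stood at 102, 112, 131 and 89.1 CPM in Vehicle and 38.6, 48.0, 58.6 and 51.8 CPM in ADF. In drug-treated tumours it was 55.7, 57.8, 61.6 and 53.1 CPM in ENZ and 55.9, 46.8, 57.6 and 53.3 CPM in ADF+ENZ. Vehicle tumours were thus high and all other groups low and overlapping. The average fall of -0.62 (SE 0.0855, adjusted p = 0.000891) joined effects of -1.14 and -0.10. The only list members moved alike were Angptl4 and Stc2, a secreted glycoprotein (average -1.11, adjusted p = 0.0442), named after its values were seen.

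The angiogenic factor Vegfa stood at 308 ± 55.3 CPM in Vehicle and 166 ± 11.9 CPM in ADF, but at 271 ± 18.9 and 260 ± 30.6 CPM in ENZ and ADF+ENZ (average -0.48, adjusted p = 0.0029). Pgf, which binds the same receptor VEGFR1, stood at 72.9 ± 7.99 CPM in Vehicle and between 20.5 and 23.1 CPM in the means of the other groups. These 2 were the only members to fall of 16 tested on the list of angiogenic ligands and receptors, where 2.7% of all genes fell. The oxidoreductase Ero1l and the glucose transporter Slc2a1 also had unlike effects: Ero1l -1.53 and -0.27, Slc2a1 -1.46 and -0.04.

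Promoters of 3 of these genes are printed because Ldha and P4ha2 fell mostly without drug while Pfkl fell in both states. They are the 250 bases before the RefSeq start in GRCm38.p6, 5′ to 3′ on the gene's strand. Capitals mark ACGTG, a form of the core of hypoxia response elements, and CACGTG, an E-box bound by MYC, CLOCK and other factors. The other form of that core, GCGTG, was not searched for, and it occurs unmarked in the P4ha2 and Pfkl windows. Both strands were searched, so CACGTG counts as 2 overlapping matches of ACGTG.
Ldha, chr7:46845554-46845803, plus strand: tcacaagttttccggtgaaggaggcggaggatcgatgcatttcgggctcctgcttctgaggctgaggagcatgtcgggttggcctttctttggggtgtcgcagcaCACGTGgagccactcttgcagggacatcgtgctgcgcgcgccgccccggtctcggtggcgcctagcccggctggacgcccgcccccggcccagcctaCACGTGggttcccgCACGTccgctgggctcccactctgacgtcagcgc
P4ha2, chr11:54100674-54100923, plus strand: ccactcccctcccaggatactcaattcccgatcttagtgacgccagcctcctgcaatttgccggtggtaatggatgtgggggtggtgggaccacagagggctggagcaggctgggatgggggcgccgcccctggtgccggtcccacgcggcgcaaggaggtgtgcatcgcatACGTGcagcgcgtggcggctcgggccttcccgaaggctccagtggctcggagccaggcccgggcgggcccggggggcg
Pfkl, chr10:78009808-78010057, minus strand: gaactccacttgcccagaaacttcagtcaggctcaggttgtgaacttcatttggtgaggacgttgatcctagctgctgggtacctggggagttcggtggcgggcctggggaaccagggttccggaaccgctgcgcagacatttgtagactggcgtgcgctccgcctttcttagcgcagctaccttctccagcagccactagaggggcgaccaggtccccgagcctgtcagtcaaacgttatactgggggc
The Ldha window had 5 matches of ACGTG, among them 2 of CACGTG, and a second RefSeq window of Ldha had 0 of either. P4ha2 had 1 ACGTG and Pfkl 0. Of other genes that fell mostly without drug, Slc2a1 had 1 ACGTG, Vegfa had 0 and 1 in its 2 windows, and Aldoa had 0, 1 and 1 in its 3. The prolyl hydroxylase gene P4ha1 (effects -1.26 and -0.32) had 1, and the aldolase gene Aldoc (-2.43 and -0.70) had 0 in both of its windows. Genes with that pattern thus had windows with and without a match. ACGTG was present in 13 of 33 windows of the glycolysis list (39.4%) and 15 of 34 of the hypoxia list (44.1%), where 16.6% of 32851 RefSeq windows held it. CACGTG was in 9.09% and 8.82% of the windows of these lists and in 6.02% of all windows. A match describes letters in this window, and lists differ in base composition, which was not tested.

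**Figure D3:**
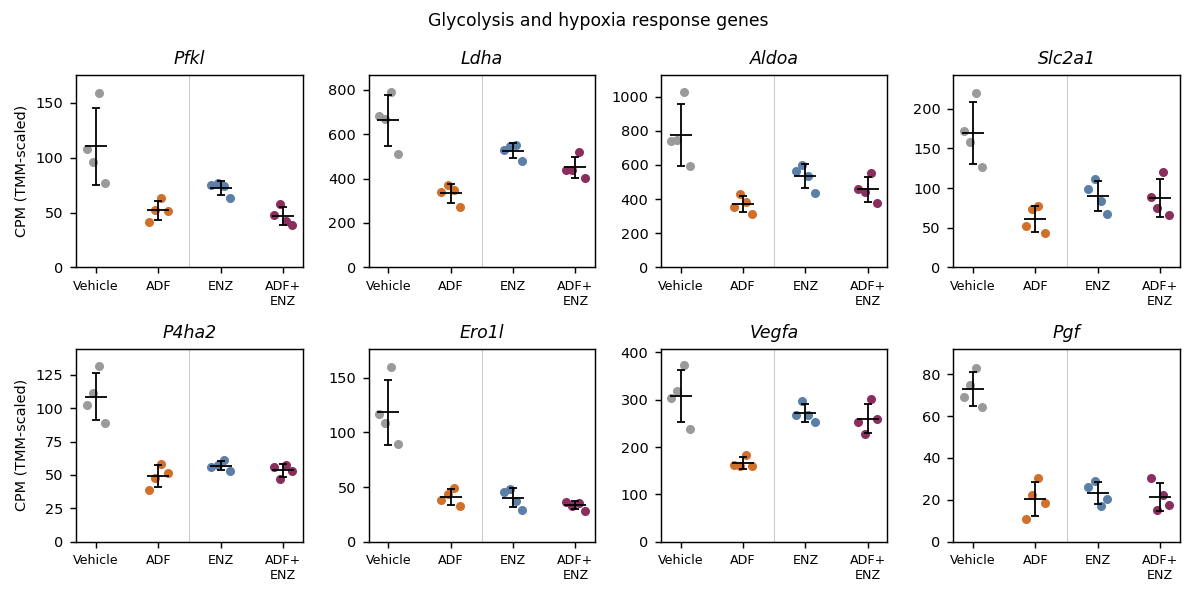
CPM of 4 glycolysis genes (top) and 4 hypoxia response genes (bottom) in each tumour (points), with the mean and SD of each group of 4 (black bars). Pfkl is lower in both fasted groups than in the fed group of its drug state, while Aldoa, Slc2a1, P4ha2, Ero1l, Vegfa and Pgf are highest in Vehicle and overlap between ENZ and ADF+ENZ.

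Sterol genes leaned down in both states, further without drug. Of 26 tested cholesterol synthesis and uptake genes, 5 fell, none rose and 24 had an average below 0, where 2.7% of all genes fell and 49.6% had an average below 0. The 5 became 11 in DESeq2, 3 without an interaction term and 0 with reads in no gene as covariate. The list's median was -0.56 without and -0.14 with drug, 17 members were lower in both states, and 0 were moved alike. Sc5d, a late sterol desaturase, was at 40.2 ± 6.76 CPM in Vehicle, 23.8 ± 3.31 in ADF, 33.5 ± 4.13 in ENZ and 27.5 ± 5.35 in ADF+ENZ, an average of -0.51 (adjusted p = 0.00751). Idi1, the isopentenyl isomerase, fell by 1.04 on the log2 scale (adjusted p = 0.0244). The count of 5 was 2 when ENZ replicate 3 was left out, 9 when Vehicle replicate 3 was, and 3 without ENZ replicate 4, ADF replicate 3 or ADF+ENZ replicate 1, 2 or 3.

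Fatty acid synthesis genes were mixed, with 1 rise and 1 fall among 20 tested (2.36% and 2.7% of all genes). Fatty acid synthase, Fasn, rose from 327 ± 47.0 CPM in Vehicle to 385 ± 35.0 in ADF, and from 342 ± 48.6 CPM in ENZ to 452 ± 55.3 in ADF+ENZ, an average of 0.32 (adjusted p = 0.0333). Its adjusted p was between 0.0513 and 0.0748 without Vehicle replicate 1, 3 or 4, ENZ replicate 3 or 4, ADF replicate 1 or 2, or ADF+ENZ replicate 2 or 3. Acsl3, an acyl-CoA synthetase and androgen target, fell by 0.61 on average (adjusted p = 0.00482), with 46.7 ± 10.2 CPM in Vehicle and means of 23.8 to 29.1 CPM in the other groups.

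In central metabolism the transaldolase gene Taldo1 (ENSMUSG00000025503, chromosome 7), of the pentose phosphate pathway, was the clearest. It stood at 86.8, 86.7, 92.7 and 85.4 CPM in Vehicle and 73.2, 78.0, 68.3 and 58.7 CPM in ADF. Levels under drug were 82.7, 87.6, 90.1 and 92.7 CPM in ENZ and 63.9, 65.8, 58.3 and 64.0 CPM in ADF+ENZ. Fed tumours differed little, and all 8 lay above all 8 fasted tumours. The average fall was -0.41 (SE 0.0577, adjusted p = 0.000891). Pyruvate carboxylase, Pcx, which feeds oxaloacetate to the TCA cycle, fell by 0.72 on the log2 scale (adjusted p = 0.0197), from 10.5 ± 1.84 to 5.24 ± 1.86 CPM under drug and from 13.1 ± 3.83 to 9.38 ± 1.46 CPM without. It was 1 of 3 TCA cycle genes to fall of 23 tested, none rising, where 2.7% of all genes fell. The list's median was -0.23 without and 0.00 with drug.

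Nuclear-encoded respiratory chain genes had 5 falls and no rise on average among 44 tested, with a median of -0.07. Of the 44 averages 33 were below 0, where 2.7% of all genes fell and 49.6% of all averages were below 0. Without drug 9 fell (4.96% of all genes) and with drug 0, with medians of -0.22 and 0.04. The 5 became 8 in DESeq2 and in limma-voom, 1 without an interaction term and 0 with reads in no gene as covariate. The 5 became 2 without ENZ replicate 3 or 4, ADF replicate 4 or ADF+ENZ replicate 2, and 3 without Vehicle replicate 2 or 3, ENZ replicate 2, ADF replicate 3 or ADF+ENZ replicate 1, 3 or 4. Cytosolic ribosomal protein genes had 2 falls among 78 tested, a share near the 2.7% of all genes, with a median of -0.07; DESeq2 called 7 of them and limma-voom 8.

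Genes of the growth and translation machinery moved little on average, and several regulators rose. Mtor (ENSMUSG00000028991, chromosome 4), the kinase of the nutrient-sensing mTOR complexes, stood at 141, 131, 149 and 137 CPM in Vehicle and 202, 137, 175 and 187 CPM in ADF. In the enzalutamide groups it stood at 119, 149, 139 and 152 CPM in ENZ and 172, 209.9, 260.0 and 159.7 CPM in ADF+ENZ. The ranges were apart with drug and overlapped without it, and the average rise was 0.43 (SE 0.097, adjusted p = 0.0181). Pdcd4, an inhibitor of the initiation helicase eIF4A, rose by 0.28 (adjusted p = 0.0174), with 26.9 ± 0.988 and 28.7 ± 3.18 CPM in the fed groups and 32.9 ± 2.57 and 34.6 ± 2.43 CPM in the fasted groups. In total, 5 of 46 tested members of the list of translation factors and mTOR genes rose and 1 fell on average, with a median of 0.00. Of all genes tested 2.36% rose. Without drug 7 members fell and none rose (4.96% of all genes fell), and with drug 0 passed. The list's median was -0.06 without and 0.12 with drug, and the test of the difference passed for 2 (3.1% of all genes). The 5 became 2 without a filter or an interaction term and 3 with reads in no gene as covariate. They became 2 without Vehicle replicate 2, 3 or 4, ENZ replicate 3, ADF replicate 3 or ADF+ENZ replicate 3, and 3 without Vehicle replicate 1, ENZ replicate 1, 2 or 4, ADF replicate 1 or 2, or ADF+ENZ replicate 1 or 2. Myc did not pass (0.27, adjusted p = 0.129), at 96.1 and 104 CPM in the fed means and 117 and 124 CPM in the fasted means. Polr1a, the largest subunit of RNA polymerase I, rose by 0.24 (adjusted p = 0.0222). It was the sole member of 34 MYC-driven ribosome biogenesis genes to pass, where 5.06% of all genes passed. The sources used here do not say whether reads of the MYC transgene were counted under Myc.

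**Figure D4:**
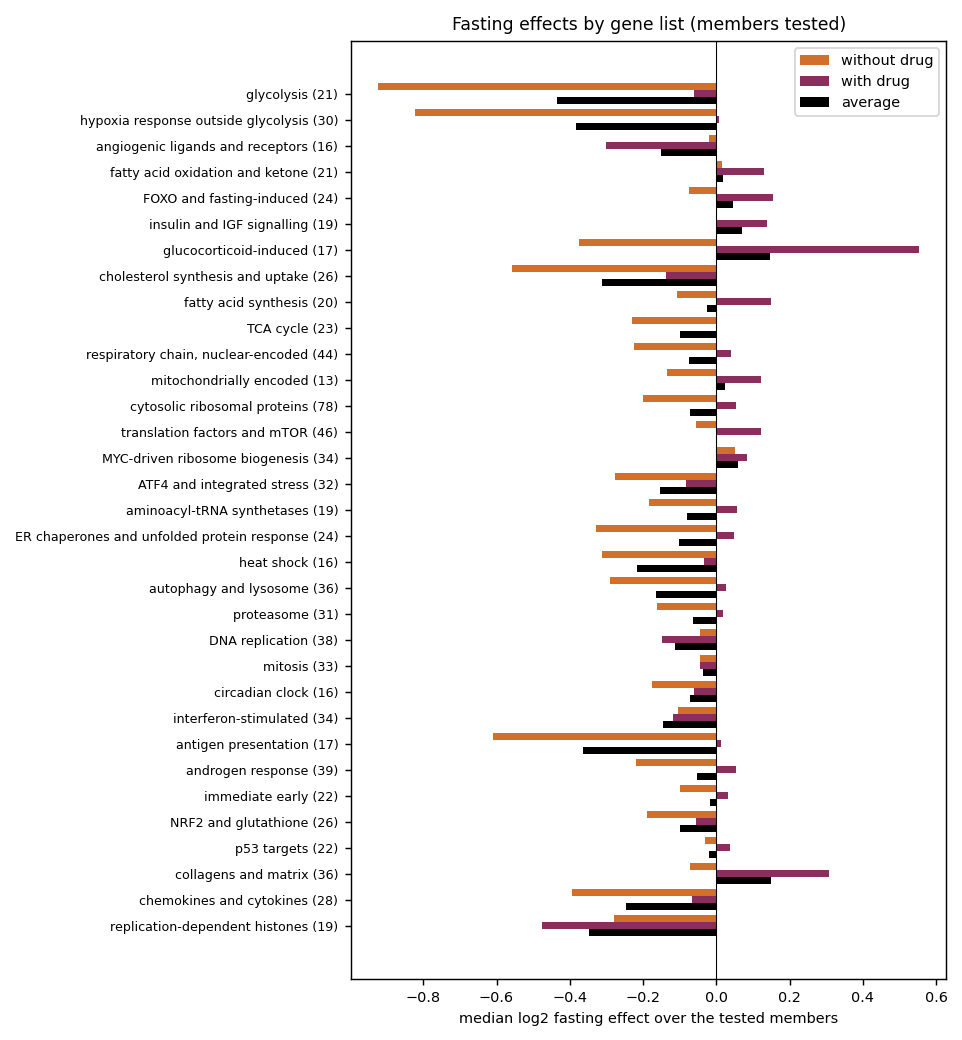
Median log2 fasting effect over the tested members of each pathway list (number tested in brackets), without drug (orange), with drug (purple) and on average (black), with bars from 0. Glycolysis and hypoxia have long bars without drug and on average but short bars with drug. Glucocorticoid-induced genes have bars of opposite sign with and without drug, and replication-dependent histones are below 0 in all 3.

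A lysosomal enzyme fell and an autophagy kinase rose in both drug states. Hexa (ENSMUSG00000025232, chromosome 9), the alpha subunit of lysosomal hexosaminidase, had the smallest adjusted p of the named genes. It stood at 195, 199.6, 218 and 213 CPM in Vehicle and 120.4, 125, 152 and 133 CPM in ADF. Under drug it stood at 182, 156, 168 and 172 CPM in ENZ and 115, 109, 114 and 133 CPM in ADF+ENZ. Fasted tumours were below all fed tumours of either drug state, and the average fall was -0.58 (SE 0.0608, adjusted p = 6.85e-05). The 2 effects, -0.64 and -0.52, differed by 0.11 (95% interval -0.14 to 0.37). Ulk1, the kinase that starts autophagy, rose by 0.31 (adjusted p = 0.0142), from 67.0 ± 4.28 to 85.0 ± 3.90 CPM without drug and from 69.8 ± 10.1 to 84.2 ± 8.37 CPM with it. The cathepsin gene Ctsz fell by 0.36 (adjusted p = 0.00406) and the proton pump subunit Atp6v1a by 0.26 (adjusted p = 0.00935), each mostly without drug. Over the whole list of 36, 5 members fell (2.7% of all genes) and 1 rose (2.36%) on average. Of the 36 averages 29 were below 0, against 49.6% of all averages. Nearly all of this came from the tumours without drug, where 16 fell (4.96% of all genes) and the median was -0.29, against 1 fall, 1 rise and a median of 0.03 with drug. The test of the difference passed for 4 (3.1% of all genes). The 5 became 8 in DESeq2 and 2 with reads in no gene as covariate.

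Of 24 tested ER chaperone and unfolded protein response genes, 6 fell on average (2.7% of all genes) and none rose. Without drug 13 fell (4.96% of all genes) and with drug 1 (0.274%), with medians of -0.33 and 0.05. The test of the difference passed for 3 (3.1% of all genes). The gene that fell with drug was Sdf2l1. Sdf2l1, an ER stress-induced partner of BiP, stood at 17.5, 18.9, 20.8 and 17.6 CPM in Vehicle and 10.8, 12.9, 15.8 and 11.6 CPM in ADF. With enzalutamide it was 17.2, 14.4, 20.4 and 17.5 CPM in ENZ and 13.7, 11.4, 10.7 and 11.2 CPM in ADF+ENZ. The groups did not overlap in either state, and the effects were near equal at -0.55 and -0.57 (average -0.56, SE 0.0934, adjusted p = 0.0029, 95% interval of the difference -0.40 to 0.38). Calreticulin, Calr, fell by 0.38 (adjusted p = 0.00539), from 567 ± 47.7 to 388 ± 35.8 CPM without drug and from 549 ± 57.5 to 476 ± 44.7 CPM with drug. The 6 became 3 without ENZ replicate 3, ADF+ENZ replicate 1 or an interaction term, and 1 with reads in no gene as covariate. Chordc1, an HSP90 co-chaperone, fell by 0.31 and was moved alike (adjusted p = 0.0183), though its ranges overlapped in both states.

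Among targets of the stress factor ATF4, 6 of 32 fell and 1 rose on average, with a median of -0.15, where 2.7% of all genes fell. Without drug 7 fell and with drug 0, with medians of -0.28 and -0.08. The test of the difference passed for 5 of the 32 (3.1% of all genes), and 2 of the falls were moved alike. The VLDL receptor Vldlr stood at 3.09, 2.12, 3.67 and 2.099 CPM in Vehicle and 0.40, 1.60, 1.26 and 0.65 CPM in ADF. In drug-treated tumours it was 2.42, 1.91, 1.20 and 1.37 CPM in ENZ and 0.90, 0.73, 0.44 and 0.73 CPM in ADF+ENZ. No fasted tumour reached a fed tumour of its drug state, at levels near 1 CPM. The average fall was -1.34 (SE 0.252, adjusted p = 0.00544), the largest among separated genes at 1 CPM or more. The 6 became 2 with reads in no gene as covariate, and 3 without an interaction term or without Vehicle replicate 2, ENZ replicate 3, ADF replicate 4 or ADF+ENZ replicate 3.

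Most tested replication-dependent histone genes were lower in both drug states. Of 19 tested, 18 averages were below 0 (49.6% of all averages) and 17 genes were lower in both states (25.2% of all genes). The medians were -0.28 without and -0.47 with drug, and 6 fell on average (2.7% of all genes). Hist1h1a, a linker histone, stood at 15.5, 13.7, 10.2 and 9.45 CPM in Vehicle and 5.04, 9.89, 7.64 and 8.17 CPM in ADF. Levels under drug were 14.1, 13.8, 17.9 and 16.7 CPM in ENZ and 6.62, 5.44, 4.60 and 6.22 CPM in ADF+ENZ. The groups were apart under drug, and without drug 1 fasted tumour exceeded the lowest Vehicle tumour. The average fall was -1.05 (SE 0.136, adjusted p = 0.000672). Hist1h2bc fell by 0.35 and was moved alike (adjusted p = 0.0255), and its adjusted p was 0.0589 without ENZ replicate 3 and 0.0565 without ADF replicate 4. The count of 6 was 11 in DESeq2, 3 without a filter or an interaction term and 1 with reads in no gene as covariate. It was 10 without ENZ replicate 1, 3 without Vehicle replicate 4, 2 without Vehicle replicate 1 or 2, ENZ replicate 2 or 4, ADF replicate 1 or 3, or ADF+ENZ replicate 1 or 3, and 1 without ENZ replicate 3 or ADF replicate 4. Transcripts of these genes carry no poly(A) tail, and the sources used here do not say how RNA was selected for the libraries.

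Of 38 DNA replication genes 2 fell and none rose, and 32 averages were below 0, where 2.7% of all genes fell and 49.6% of all averages were below 0. Cdc45, of the replicative helicase, fell by 0.42 (adjusted p = 0.0165), and Rrm2, the regulated subunit of ribonucleotide reductase, fell by 0.51 (adjusted p = 0.0208). Rrm2 stood at 107 ± 16.1 CPM in Vehicle and 69.7 ± 20.7 in ADF, and went under drug from 78.9 ± 8.996 to 59.5 ± 6.46 CPM. Both genes were moved alike. Of 33 mitosis genes 0 passed in edgeR, in DESeq2 or in limma-voom, with 3 at an unadjusted p under 0.05 in edgeR.

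Of 16 clock genes tested 4 fell and none rose on average, where 2.7% of all genes fell. Without drug 2 fell and with drug 0, with medians of -0.17 and -0.06. Dbp, a transcription factor driven directly by CLOCK and BMAL1, stood at 21.7, 25.8, 21.2 and 26.1 CPM in Vehicle and 12.6, 17.3, 18.3 and 14.8 CPM in ADF. In the enzalutamide groups it stood at 31.9, 24.0, 18.7 and 17.8 CPM in ENZ and 13.7, 11.02, 10.1 and 19.4 CPM in ADF+ENZ. The ranges were apart without drug, and under drug 1 fasted tumour lay above the lowest 2 fed tumours. The average fall was -0.66 (SE 0.144, adjusted p = 0.0147). The clock repressor Bhlhe41 was moved alike (average -0.52, adjusted p = 0.0187), at 58.5 ± 7.75 and 45.6 ± 7.82 CPM in Vehicle and ADF and 52.5 ± 9.77 and 32.3 ± 7.45 CPM in ENZ and ADF+ENZ. Its paralog Bhlhe40, also a hypoxia gene, fell mostly without drug (effects -0.71 and -0.09). The sources used here do not give the hour at which tumours were taken.

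Glucocorticoid-induced genes had no common average, with 2 rises and 2 falls among 17 (2.36% and 2.7% of all genes). Their medians were -0.38 without and 0.55 with drug. Angptl4 and the sulfotransferase Sult1a1 were the risers and both moved alike. Sult1a1 stood at 3.69 ± 1.10 and 8.45 ± 4.35 CPM in Vehicle and ADF and at 4.40 ± 1.06 and 8.14 ± 2.36 CPM in ENZ and ADF+ENZ (average 1.04, adjusted p = 0.0119). The metallothionein Mt1 fell on average (-0.39, adjusted p = 0.00862) with effects of -0.98 and 0.20. The siderophore-binding protein Lcn2 stood at 22.5 ± 8.08 CPM in Vehicle and means of 2.03 to 4.39 CPM in the other groups (average -1.88, adjusted p = 0.00539). Fkbp5, a cochaperone induced by androgen and glucocorticoid, averaged out: it was lower without drug (-0.73, adjusted p = 0.0346) and higher with drug (1.06, adjusted p = 0.024), with an average of 0.17 (adjusted p = 0.534).

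Of 39 tested androgen response genes 1 rose (2.36% of all genes) and 3 fell (2.7%) on average, with a median of -0.05. In DESeq2 8 of them passed. Within drug states they moved apart. Without drug 8 fell and none rose (4.96% of all genes fell), and with drug 4 rose and none fell (0.813% of all genes rose). The difference between the 2 effects passed its test for 8 of the 39, where it did for 3.1% of all genes. The riser on average was Mertk, a receptor kinase that macrophages use to clear dying cells. It stood at 39.1, 29.8, 41.4 and 42.6 CPM in Vehicle and 61.2, 42.2, 46.7 and 46.1 CPM in ADF. Under drug it stood at 30.9, 37.0, 29.6 and 36.3 CPM in ENZ and 56.5, 55.4, 49.3 and 57.4 CPM in ADF+ENZ. Fasted tumours were apart under drug and overlapped the top of the Vehicle range without drug, and the average rise was 0.53 (SE 0.0871, adjusted p = 0.00272). Trp53inp1, a stress-induced p53 target that promotes autophagy, rose by 0.37 and was moved alike (adjusted p = 0.0171). It was 1 of 2 members to pass of 22 tested p53 targets, where 5.06% of all genes passed.

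Inflammatory ligands leaned down. Of 28 chemokine and cytokine genes 3 fell and none rose on average, with a median of -0.25, where 2.7% of all genes fell. The median was -0.39 without and -0.07 with drug, and 2 genes fell in each state. Il1a, an alarm cytokine, was at 2.40 ± 0.437 and 1.13 ± 0.478 CPM in Vehicle and ADF and 2.49 ± 0.694 and 1.498 ± 0.521 CPM in ENZ and ADF+ENZ (average -0.87, adjusted p = 0.0222, and 0.0538 without ENZ replicate 3). Il1rn, its receptor antagonist, was at 12.4 ± 1.67 and 6.08 ± 3.05 CPM and at 8.33 ± 1.46 and 5.67 ± 0.769 CPM in the same order (average -0.78, adjusted p = 0.0174), and its ranges were apart in both states. Il1b fell by 1.15 on average (adjusted p = 0.0142), with effects of -0.26 and -2.04. The antiviral tetherin Bst2 was moved alike (-0.37, adjusted p = 0.0177), 1 of 3 of 34 tested interferon-stimulated genes to fall, none rising, where 2.7% of all genes fell. The summed level of 12 macrophage markers, all detected, was 2225 to 3171 CPM in Vehicle and 2239 to 2651 in ADF, and 2079 to 2905 CPM in ENZ and 2076 to 2905 in ADF+ENZ (two-sided exact permutation p = 0.52 for diet, adjusted p = 0.717 over 18 lists). The part of macrophage number in the cytokine and Mertk results was not tested.

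Icam2 and Bcl6b, genes expressed in endothelium, were among the largest falls moved alike, while no gene of the endothelial marker list passed in edgeR. Icam2 (ENSMUSG00000001029, chromosome 11), an adhesion molecule of endothelium and leukocytes, stood at 6.30, 6.69, 5.69 and 6.96 CPM in Vehicle and 2.80, 3.91, 3.94 and 3.80 CPM in ADF. With enzalutamide it was 7.87, 6.42, 6.55 and 5.36 CPM in ENZ and 2.53, 2.85, 1.53 and 4.65 CPM in ADF+ENZ. All 8 fed tumours lay above all 8 fasted ones, and the average fall was -0.96 (SE 0.162, adjusted p = 0.0029). Bcl6b (ENSMUSG00000000317, chromosome 11), a transcriptional repressor found in endothelium, stood at 15.9, 14.9, 18.6 and 15.5 CPM in Vehicle and 6.08, 13.0, 9.53 and 12.2 CPM in ADF. In drug-treated tumours it was 18.6, 20.1, 16.8 and 14.99 CPM in ENZ and 7.76, 9.23, 4.60 and 10.1 CPM in ADF+ENZ. Here too all fed tumours were above all fasted tumours (average -0.89, SE 0.151, adjusted p = 0.00323). Of 10 endothelial markers, all tested, 8 averages were below 0, with a median of -0.28. None of the 10 passed in edgeR or limma-voom and 1 passed in DESeq2, with 2 at an unadjusted p under 0.05 in edgeR. Their summed level was 457 to 716 CPM in Vehicle and 491 to 661 in ADF, and 412 to 805 CPM in ENZ and 337 to 698 in ADF+ENZ (exact permutation p = 0.363, adjusted p = 0.682). The part of endothelial content in these falls was not tested.

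Of 36 collagen and matrix genes 2 rose and none fell on average, where 2.36% of all genes rose. Without drug 3 fell and none rose, and with drug 3 rose and none fell, with medians of -0.07 and 0.31. The proteoglycan versican, Vcan, was at 1085 ± 135 and 1274 ± 432 CPM in Vehicle and ADF and at 814 ± 115 and 1497 ± 310.0 CPM in ENZ and ADF+ENZ (average 0.56, adjusted p = 0.0265). Its adjusted p became 0.0559, 0.0583 and 0.0511 when Vehicle, ENZ or ADF+ENZ replicate 3 was left out. Its ranges were apart with drug and overlapped without it. The fibroblast marker Pdgfra rose with them (0.52, adjusted p = 0.0143). The 10 fibroblast markers summed to 11300 to 13100 CPM in Vehicle and 9195 to 12940 in ADF, and to 9732 to 10820 CPM in ENZ and 11930 to 13750 in ADF+ENZ (exact permutation p = 0.128 for the average and 0.0286 with drug, the smallest that 4 against 4 allows). The part of fibroblast content was not tested.

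Of 18 cell type lists, 1 summed level passed for the average fasting effect, that of basal prostate epithelium. It was 734 ± 108 and 1019 ± 104.5 CPM in Vehicle and ADF and 686 ± 79.4 and 894 ± 126 CPM in ENZ and ADF+ENZ (exact permutation p = 0.00122, adjusted p = 0.022). That sum was nearly all dystonin, Dst, a cytoskeletal linker of many cell types, at 682 to 1012 CPM by group. Dst rose by 0.43 (adjusted p = 0.00757) and was moved alike. Of 3 tested members only Dst passed. Another basal marker, Trp63, had lower means in both fasted groups, at 7.45 ± 3.29 and 6.56 ± 1.30 CPM in Vehicle and ADF. It was at 3.67 ± 1.47 and 1.77 ± 1.63 CPM in ENZ and ADF+ENZ. Ngfr had higher means in both fasted groups, at no more than 0.809 CPM in any group. The defining basal keratins were near 0, with 2 counts of Krt5 and 5 counts of Krt14 over all 16 libraries.

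The genes with the largest average change, among those moved alike with ranges apart in both states and at least 1 CPM, were mostly scarce. Rising with Angptl4 was Lrrn3, a neuronal leucine-rich repeat protein, at 1.74 ± 0.517 and 3.80 ± 0.827 CPM without drug and 2.51 ± 0.421 and 6.44 ± 4.06 CPM with it, fed first (average 1.22, adjusted p = 0.00829). Npr3, the clearance receptor for natriuretic peptides, went from 1.76 ± 0.578 to 4.26 ± 0.980 CPM and from 2.12 ± 0.818 to 4.04 ± 1.42 CPM (average 1.07, adjusted p = 0.00751). Acer2, a Golgi ceramidase that releases sphingosine, went from 6.32 ± 1.05 to 12.6 ± 6.01 CPM and from 8.09 ± 2.57 to 17.2 ± 3.31 CPM (average 1.05, adjusted p = 0.00751). The adhesion molecule Amigo2 was the most abundant riser after Angptl4, from 25.7 ± 2.29 to 41.4 ± 12.2 CPM and from 26.1 ± 5.92 to 44.3 ± 11.01 CPM (average 0.72, adjusted p = 0.012). Adam22, a receptor for LGI proteins at synapses, rose by 0.73 (adjusted p = 0.00553). The long noncoding RNA Gm29156 rose by 1.001, and the TEC transcripts Gm44080 and Gm37842 rose by 0.89 each.

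Falling with Vldlr, Icam2 and Bcl6b were a ligand, 2 channel subunits and an enzyme. The growth factor Bmp2 went from 4.74 ± 1.03 to 2.20 ± 0.968 CPM without drug and from 3.68 ± 0.943 to 1.43 ± 0.883 CPM with it (average -1.17, adjusted p = 0.0161). The calcium channel subunit Cacng4 fell by 1.18 (adjusted p = 0.00751) and the potassium channel subunit Kcne3 by 1.13 (adjusted p = 0.00306). The protein phosphatase Ppm1j fell by 1.06 (adjusted p = 0.00304), and the TEC transcript Gm43890 by 0.999 (adjusted p = 0.0116). The snoRNA Gm25848 went from 4.04 ± 0.383 to 1.34 ± 0.339 CPM and from 4.57 ± 0.673 to 2.21 ± 0.999 CPM (average -1.30, adjusted p = 0.000891). A snoRNA usually lies within a host gene, and its reads cannot be told from unspliced host RNA without more detail of the counting.

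Transcript classes did not share the average evenly. Of 2064 long noncoding genes tested 44 rose and 6 fell, and of 1199 genes in the annotation's class TEC, whose existence still needs experimental evidence, 35 rose and 4 fell, where 348 of 13766 protein-coding genes rose and 455 fell. Both noncoding classes had medians of opposite sign in the 2 states: 0.30 without and -0.08 with drug for long noncoding genes, 0.42 and -0.12 for TEC. Reads in no gene made up 25.9% in Vehicle against 32.9% in ADF, and 25.9% in ENZ against 24.0% in ADF+ENZ, and their part in these medians was not tested. Of 78 snoRNA genes 11 fell and 1 rose, with 5 moved alike, where 2.7% of all genes fell and 2.07% were moved alike.

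Some genes with strong effects in each state vanish from the average because the signs are opposite. In 7 genes both effects passed with opposite signs, where 30 genes passed in both states with the same sign. The surface antigen Ly6a (Sca-1) was at 473 ± 49.2 and 277 ± 30.8 CPM in Vehicle and ADF and at 194.5 ± 14.0 and 271 ± 21.9 CPM in ENZ and ADF+ENZ. Its effects of -0.77 and 0.48 differed by 1.25 (95% interval 0.96 to 1.54, adjusted p = 0.000403), and its average was -0.15 (adjusted p = 0.219). The lysosomal membrane protein Tmem106b and the ubiquitin ligase Cblb also fell without drug and rose with drug, and the DNA helicase Ddx11 did the reverse, with effects of 0.40 and -0.42.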

How the data were processed

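Total RNA of 16 tumours was sequenced as read pairs on an Illumina NovaSeq, per the labels' protocols. The values are raw gene counts as deposited by the authors, 1 column per tumour. Tools listed in the submitters' processing notes are DESeq2, featureCounts, HISAT2 and Trim Galore, and builds mm39 and GRCh38, with no versions or roles. 5 entries that are no gene held 43.5% to 53.1% of reads and were dropped, leaving 55414 gene IDs; 52081 matched a symbol, with gene classes from GENCODE M21 (GRCm38). Of 4 pairs of IDs with the same symbol the lower is named by ID.

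Counts were fitted once over 4 groups in edgeR 4.0.16 (R 4.3.3; TMM scaling, filterByExpr at its limits of 10 counts per library and 15 in total, robust quasi-likelihood test), which kept 18946 genes. Contrasts were each adjusted by Benjamini-Hochberg at 0.05. Library measures and marker sums were compared by two-sided exact permutation of diet within drug state. Alternatives were DESeq2 1.42.0, limma-voom (limma 3.58.1), other scaling and filters, covariates, an additive model and each library left out. The code was tested on simulated data. Replicate pairs differed by more than counting noise (chi-square per degree of freedom 5.19 to 33.9 over 24 pairs).

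Named genes were the 10 largest separated changes moved alike in each direction, up to 4 per pathway list by p, 12 fixed genes and 4 with opposite effects. Of these 109 genes 73 are reported and counted in the checks, with a few others named after their values were seen. Aldoc and P4ha1 are given for their promoters alone. A planned search for genes of like pattern was not run. The contrast, the 51 gene lists and these rules were chosen with earlier results of these data known. Promoters are RefSeq windows in GRCm38.p6, found for 15 of 18 genes looked up.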

Additional observations from a re-analysis of the deposited data

Results flagged for a closer look

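For the 73 named genes counted in the checks, each group of 4 tumours was checked for a single tumour far from the others. Of 292 groups 15 had one, where chance gives about 1 in 20. Low tumours were ADF replicate 1 for Icam2 (2.80 CPM), ENZ replicate 4 for Pfkl (63.2 CPM), ADF replicate 4 for Lcn2 (1.94 CPM), ENZ replicate 2 for Cdc45 (21.8 CPM), Vehicle replicate 3 for Vcan (884 CPM), Vehicle replicate 3 for Hist1h2bc (30.04 CPM) and Vehicle replicate 1 for Fkbp5 (306 CPM). High tumours were ADF replicate 4 for Gm44080 (5.74 CPM), ADF replicate 2 for Gm37842 (2.49 CPM), ENZ replicate 1 for Kcne3 (8.50 CPM), ADF replicate 3 for Vegfa (184 CPM) and Vehicle replicate 2 for Idi1 (11.3 CPM). Also high were ADF+ENZ replicate 2 for Ulk1 (96.7 CPM), ADF+ENZ replicate 3 for Vcan (1958 CPM) and ADF replicate 2 for Il1a (1.84 CPM).

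The fasting effect differed between drug states for 13 of these 73 genes by edgeR's test of that difference. The effect with drug was higher than the effect without it by 0.77 on the log2 scale for Ldha, 0.84 for Aldoa, 1.42 for Slc2a1, 1.04 for P4ha2, 1.25 for Ero1l, 0.83 for Vegfa and 1.71 for Pgf, all of which were lower in ADF than in Vehicle and closer to 0 under drug. It was higher by 1.18 for Mt1, 1.79 for Fkbp5, 1.25 for Ly6a, 0.97 for Tmem106b and 0.93 for Cblb, and lower for Ddx11 (-0.83), whose 2 effects have opposite signs. Adjusted p-values for these differences ran from 0.000403 (Ly6a) to 0.0411 (Aldoa). Aldoc and P4ha1, given for their promoters alone, also passed that edgeR test (adjusted p = 0.0489 and 0.0426) but were not counted.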

How the results depend on the processing

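The 958 genes changed on average became 1593 with DESeq2, 542 with the share of reads in no gene as a covariate, 0 with that of ambiguous reads and 543 without an interaction term, and ran from 567 to 1120 with each library left out. The 393 genes moved alike became 228 and 0 with these covariates and 29 when each effect had to pass after adjustment, and ran from 260 to 462. The 1707 genes without drug became 6 and 2 with the covariates and 1119 among protein-coding genes alone, and ran from 610 to 1927. The 206 genes with drug became 693 with DESeq2, 43 and 4 with the covariates and 54 from the 8 libraries of that state alone, and ran from 20 to 358. The 587 genes with unlike effects became 1363 with DESeq2, 0 (1014 at an unadjusted p under 0.05, edgeR) and 192 with the covariates and 350 among protein-coding genes, and ran from 148 to 908. The covariate fits had larger standard errors; why other settings moved counts was not tested. Counts by gene list moved most for histones, from 1 to 10 with a library left out.

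Of 64 named genes that passed, 58 passed with any library left out and 48 under every alternative but the 2 covariates; with ambiguous reads as covariate all 64 lost the call and none changed sign. Exact permutation within a drug state cannot go below 0.0286. No paired analysis was possible because each tumour has a number of its own in the labels, so groups share no replicate numbers.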
